A study of Mus musculus with 3 samples.

Results

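The regions described are autosomal deserts, stretches of 500 kb or longer between the end of one accessible peak and the start of the next in the peak list of dopaminergic neurons (DNs). Deserts were selected on the distance between neighbouring peaks, so the absence of peaks inside them is the rule and not a result. Of 54551 stretches between neighbouring autosomal peaks, 542 met the rule, and 2378 of 20807 autosomal protein-coding genes of GENCODE M21 lay wholly inside them. The peaks came from single-nucleus ATAC-seq, in which a transposase cuts open chromatin, of the ventral tegmental area (VTA) in the midbrain of wild-type male C57Bl/6Nl mice. The 2 libraries, from mice of 7 and 9 weeks, have no treatment in their labels and were pooled by the authors into 1 list of 55326 peaks without heights or counts, so no value here has a replicate. Nuclei were sorted by DAPI alone, which stains DNA of all cell types, and the DN cluster was chosen afterwards by gene scores. All 10 marker genes of DNs examined lay outside deserts and held between 2 and 28 peaks, among them *Th*, the rate-limiting enzyme of dopamine synthesis, with 10 and *Slc6a3*, the dopamine transporter, with 2. The authors had used several of these markers to choose the DN cluster, and a gene that holds a peak cannot lie wholly inside a desert, so this only describes the list. The embryonic stem cell sample of the series was not analysed here.

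Mammalian genomes hold long gene-poor stretches and also tandem arrays of related genes that arose by local duplication. Olfactory receptors, one of the largest mammalian gene families, sit in such arrays and are transcribed mainly in sensory neurons of the nose, usually 1 allele per cell. Vomeronasal receptors detect pheromones in the vomeronasal organ. Other arrays encode secreted proteins of glands and placenta, antimicrobial peptides, detoxifying enzymes of the liver and structural proteins of hair. The starts of housekeeping and of many developmental genes usually lie in CpG islands, whereas starts of tissue-restricted genes often do not.

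The sequences just before the starts of several genes are shown because the genes inside deserts differed from the rest in the CpG content of their starts. Each is the 120 bases of mm10 before the outer annotated start, 5′ to 3′ on the strand of the gene, with each CG in capitals. *Olfr153*, an olfactory receptor gene (chr2:87531676-87531795, plus strand), and *Vmn1r137*, a vomeronasal receptor gene and the gene farthest from any peak (chr7:21994467-21994586, plus strand), are followed by *Mup4*, which encodes a major urinary protein (chr4:59960711-59960830, minus strand), and *Defa21*, which encodes an alpha-defensin (chr8:21025425-21025544, plus strand). *Foxc1* (chr13:31806513-31806632, plus strand) and *Zic1* (chr9:91365811-91365930, minus strand) encode transcription factors and also lay inside deserts, and *Slc6a3* (chr13:73536627-73536746, plus strand) is the marker outside.
Olfr153: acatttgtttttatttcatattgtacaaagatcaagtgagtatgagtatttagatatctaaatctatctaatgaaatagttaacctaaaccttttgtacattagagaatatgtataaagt
Vmn1r137: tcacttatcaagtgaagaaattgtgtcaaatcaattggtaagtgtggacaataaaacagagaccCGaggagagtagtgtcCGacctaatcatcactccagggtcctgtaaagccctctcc
Mup4: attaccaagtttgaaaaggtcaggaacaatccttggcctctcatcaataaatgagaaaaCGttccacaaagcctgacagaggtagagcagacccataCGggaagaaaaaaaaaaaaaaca
Defa21: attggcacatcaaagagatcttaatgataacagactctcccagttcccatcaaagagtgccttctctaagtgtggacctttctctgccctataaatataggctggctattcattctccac
Foxc1: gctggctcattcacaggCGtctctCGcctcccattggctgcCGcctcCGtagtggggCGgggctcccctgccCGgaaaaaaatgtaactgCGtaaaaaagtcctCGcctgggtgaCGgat
Zic1: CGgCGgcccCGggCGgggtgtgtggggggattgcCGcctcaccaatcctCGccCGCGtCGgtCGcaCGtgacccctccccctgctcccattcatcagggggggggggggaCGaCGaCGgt
Slc6a3: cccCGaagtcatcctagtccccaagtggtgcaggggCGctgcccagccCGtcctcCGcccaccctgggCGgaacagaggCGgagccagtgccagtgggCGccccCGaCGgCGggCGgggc
*Olfr153* and *Defa21* held 0 CG in these 120 bases, and *Vmn1r137* and *Mup4* held 2 each. *Foxc1* held 9, *Zic1* 14 and *Slc6a3* 11, so both kinds of start occurred inside deserts.

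The deserts added up to 551.1 Mb, 22.4% of the 2463 Mb of the autosomes. Their median length was 798 kb (quartiles 602 and 1184 kb), against a median of 10.5 kb over all stretches between neighbouring peaks. Of the 542 deserts, 184 were 1 Mb or longer, 41 were 2 Mb or longer and 10 were 3 Mb or longer. The 3 deserts just above the threshold measured 500427 bp on chromosome 1, 500523 bp on chromosome 13 and 502310 bp on chromosome 6, and the 3 stretches just below it measured 499224, 498478 and 498069 bp, so no break in length marked the threshold. Every autosome held between 11 and 47 deserts. They covered from 13.2% of chromosome 11, which had the highest peak density of 35.6 peaks per Mb, to 28.5% of chromosome 7. The share of protein-coding genes inside ranged more widely, from 0.764% on chromosome 15 (6 genes) to 25.6% on chromosome 7 (518 genes).

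**Figure D1:**
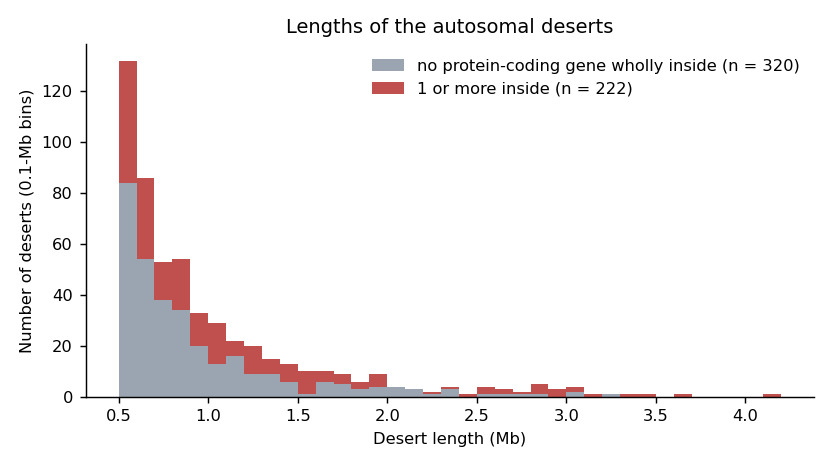
Number of deserts in bins of 0.1 Mb of length, stacked by whether a protein-coding gene lay wholly inside (222 deserts, red) or not (320 deserts, grey). Lengths ran from the 500-kb threshold to 4161 kb, and deserts with and without genes were mixed over nearly the whole range.

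Most deserts held no protein-coding gene, and a few held large arrays. In 320 of the 542 deserts (59.0%), together 298.8 Mb, no protein-coding gene lay wholly inside. Another 83 held exactly 1, and 64 held 10 or more and accounted for 1979 of the 2378 genes (83.2%). Gene density was 4.32 genes per Mb inside deserts and 9.64 per Mb over the rest of the autosomes. Leaving out olfactory and vomeronasal receptor genes, it was 2.39 per Mb inside. Among other annotated genes, 3856 of 11594 pseudogenes (33.3%, exact 95% interval 32.4 to 34.1) lay wholly inside, and 819 of 9426 long noncoding RNA genes (8.69%, 8.13 to 9.28). Of 494 gene segments of antigen receptors, which are joined by recombination in lymphocytes, 343 (69.4%, 65.2 to 73.5) lay inside. All such intervals cover counting error only, and members of an array are neighbours that share a desert, so the printed intervals are too narrow.

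The longest desert, chr7:19920932-24081581, measured 4161 kb and held 106 protein-coding genes, 65 of them vomeronasal receptors of the Vmn1r family. It also held *Nlrp9b*, *Nlrp4e* and *Nlrp5*, of a family that includes oocyte proteins needed by the early embryo, and *Ceacam20*, a cell surface protein. The 120 bases at the centres of its flanking peaks are shown because they mark where the desert ended, on the plus strand at chr7:19920622-19920741 and chr7:24081772-24081891.
left peak: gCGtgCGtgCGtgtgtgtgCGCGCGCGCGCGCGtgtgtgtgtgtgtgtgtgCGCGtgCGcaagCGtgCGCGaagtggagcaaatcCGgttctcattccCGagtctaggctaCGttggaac
right peak: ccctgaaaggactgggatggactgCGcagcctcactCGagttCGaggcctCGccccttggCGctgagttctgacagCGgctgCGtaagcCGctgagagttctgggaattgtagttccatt
The left centre held 19 CG, many of them in an alternating run, and the right centre held 8, so both ends were richer in CG than the receptor starts shown above. In this desert only 20.1% of sampled 50-mers, stretches of 50 bases, occurred once in the genome, which left about 838 kb of unique sequence. Reads that fall wholly in repeated sequence may have no single position, although read pairs are longer than 50 bases, and the part of this in the missing peaks was not tested.

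The second longest, chr17:37270457-40934394 (3664 kb), held 67 genes. Of these, 40 were olfactory receptors and 15 were the Esp genes, from *Esp36* to *Esp1*, which encode peptide pheromones secreted by exocrine glands. *Crisp1*, *Crisp2* and *Crisp3*, secreted proteins of the male reproductive tract and salivary gland, *Pgk2*, the phosphoglycerate kinase of sperm, and *Rhag*, a membrane protein of red blood cells, lay in it too. The desert at chr7:7188493-10495173 (3307 kb) held 30 genes, 24 of them Vmn2r receptors, together with *Clcn4*, a chloride and proton exchanger, and the zinc finger gene *Zfp772*. The desert at chr17:17910537-20945029 (3034 kb) held 34 genes, 21 of them Vmn2r receptors, and the formyl peptide receptors *Fpr-rs3*, *Fpr-rs4*, *Fpr-rs6* and *Fpr-rs7*. In that desert 85.0% of 50-mers were unique, against 20.6% in the one on chromosome 7.

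The other 6 of the 10 longest deserts held 2 or fewer protein-coding genes wholly inside. The desert at chr15:19361094-22548635 (3188 kb) held only *Cdh12*, a cadherin gene of 1140 kb, and *Acot10*, a thioesterase gene. The *Cdh12* start lay 1088 kb from the nearest peak. The deserts at chr17:59148285-62369087 (3221 kb), chr14:88471232-91566815 (3096 kb) and chr10:46698368-49780302 (3082 kb) held none wholly inside, with unique shares of 90.03%, 89.05% and 86.4%. The desert at chr2:97479012-100922343 (3443 kb) held *Gm10800* and *Gm10801*, known only by model number, and the one at chr12:17882054-20921039 (3039 kb) held 2 such genes at a unique share of 36.5%. Genes also reached into these deserts from their edges, as found after the values were seen. The desert on chromosome 10 covered 98.8% of the 694 kb of *Grik2*, a glutamate receptor subunit, the one on chromosome 2 part of *Lrrc4c* and the one on chromosome 14 part of *Pcdh20*, a protocadherin.

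Of the 2378 genes inside, 1062 (44.7%) were olfactory or vomeronasal receptor genes. The share of all autosomal protein-coding genes inside was 11.4% (exact 95% interval 11 to 11.9), and without these receptor genes 1316 of 19350 (6.801%). Of 1128 olfactory receptor genes, 809 lay inside (71.7%, 69.0 to 74.3), spread over 21 deserts. The desert with the most, chr2:87526350-90470092, held 128 of them, from *Olfr153* to *Olfr1274-ps*, among its 131 genes, more genes than any other desert. Deserts at chr2:85246889-87216450, chr9:37891385-39508935, chr10:128977964-130263157 and chr7:102915800-103903209 followed with 90, 61, 60 and 53. Olfactory receptor genes inside had a median distance of 379 kb from their start to the nearest peak. Of the vomeronasal receptors, 162 of 208 Vmn1r genes (77.9%, 71.6 to 83.3) and 91 of 121 Vmn2r genes (75.2%, 66.5 to 82.6) lay inside, each over 10 deserts. At a threshold of 1 Mb the shares were 51.4% and 50.4%. The genes farthest from any peak were *Vmn1r137* and *Vmn1r138*, whose starts lay 2074 and 2053 kb away in the longest desert.

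Other chemosensory families were divided. Of the bitter taste receptors, 24 of 35 Tas2r genes (68.6%, 50.7 to 83.2) lay inside, 18 of them in 1 desert on chromosome 6 from *Tas2r120* to *Tas2r140*. Of the Mrgpr genes, which encode itch and pain receptors of sensory neurons, 15 of 20 (75%, 50.9 to 91.3) lay inside. Inside lay 0 of 15 trace amine-associated receptor genes (Taar, upper bound 21.8%) and 0 of 19 Ms4a genes (upper bound 17.6%). Both families include receptors of olfactory neurons, and both bounds exceed the 11.4% share of all genes. At a threshold of 250 kb the Taar count remained 0 and the Ms4a count was 8. At 1 Mb the counts were 0 for Tas2r and Mrgpr, and also for the caseins, the keratins and keratin-associated proteins, the beta-globins, the amylases, the Ugt genes and the oocyte Fbxw group described below.

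Several families of secreted proteins of glands and placenta lay inside almost whole. All 26 prolactin family genes were inside (lower bound 86.8%), 23 of them in 1 desert on chromosome 13 from *Prl*, the pituitary hormone of lactation, to *Prl5a1*. All 9 placental cathepsins and all 5 caseins, the milk proteins *Csn1s1*, *Csn2*, *Csn1s2a*, *Csn1s2b* and *Csn3*, were inside. The *Csn2* start lay 170 kb from the nearest peak. Of the major urinary proteins, which carry pheromones, 18 of 22 (81.8%, 59.7 to 94.8) lay in a single desert on chromosome 4 from *Mup4* to *Mup19*. Of the secretoglobins, 31 of 34 (91.2%, 76.3 to 98.1) lay inside, 29 of them in 1 desert on chromosome 7 from *Scgb2b2* to *Scgb1b30*. Of the pregnancy-specific glycoproteins of the placenta (Psg), 2 of 13 (15.4%, 1.92 to 45.5) lay inside, and 10 did at a threshold of 250 kb. No lipocalin or odorant-binding gene (Lcn and Obp, 0 of 12, upper bound 26.5%) and no Wfdc or Svs gene of the seminal secretions (0 of 25, 13.7%) lay inside. These bounds and the Psg interval include the 11.4% share of all genes.

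Germ cell and embryo families were divided. All 8 Zscan4 genes, expressed in the embryo at activation of its genome, lay in 1 desert, with starts 409 kb (*Zscan4b*) to 908 kb (*Zscan4-ps2*) from a peak. Of the Pramef and Pramel genes, with roles in germ cells, 11 of 15 (73.3%, 44.9 to 92.2) were inside, and 10 of 17 Nlrp genes (58.8%, 32.9 to 81.6). The 5 Usp17 genes, which encode deubiquitinating enzymes, were all inside, and 7 of 10 Speer genes of the testis. Of the Adam genes, several of which act in sperm, 8 of 33 (24.2%, 11.1 to 42.3) were inside. None of the 5 Tdpoz and Spop-like (upper bound 52.2%), 5 Spata31 (52.2%) or 3 Ssxb and Sycp-like genes (70.8%) was. All 5 Tdpoz and Spop-like genes were inside at a threshold of 250 kb. These bounds and the Adam interval include the 11.4% share of all genes. The 14 genes of the oocyte Fbxw group, a list added after values were seen, lay in 1 desert on chromosome 9 that held under 500 kb of unique sequence.

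Among host defence genes, all 22 alpha-defensins (Defa, lower bound 84.6%), antimicrobial peptides of the gut, lay in the desert chr8:18954387-21756358 from *Defa21* to *Defa24*, with 15 of the beta-defensins. Only 17 of 42 beta-defensins were inside in all (40.5%, 25.6 to 56.7). All 11 genes of the Ifi200 family of DNA sensors lay in 1 desert on chromosome 1 from *Ifi206* to *Ifi205*, and 20 of 26 killer cell lectin-like receptor genes (Klr, 76.9%, 56.4 to 91.0) lay inside, 19 of them in 1 desert on chromosome 6. The 11 of 19 Skint and Btn genes inside included *Skint5* and *Skint6*, which at 522 and 482 kb were among the 10 longest genes inside. Other immune families had few or no genes inside, beside 11.4% of all genes. These were 0 of 30 Clec (upper bound 11.6%), 0 of 20 Ifn (16.8%) and 1 of 77 Il genes (upper bound 7.025%). The Il gene inside was *Il11ra2*, a receptor gene copy. At a threshold of 250 kb, 10 Clec and 13 Il genes lay inside, and the Ifn count stayed at 0.

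Detoxification and digestion genes lay inside in part. Of 100 cytochrome P450 genes, 42 were inside (42%, 32.2 to 52.3), 14 of them in 1 desert on chromosome 19 from *Cyp2c55* to *Cyp2c70*, and 24 were inside at 1 Mb. Of the sulfotransferases, 13 of 21 (61.9%, 38.4 to 81.9) were inside, and 5 of 22 Ugt genes, all in 1 desert with 4 of the 5 caseins. The pancreatic amylases *Amy2a1* to *Amy2a5* lay in 1 desert on chromosome 3. No glutathione transferase (0 of 23, upper bound 14.8%) and no carboxylesterase gene (Ces, 0 of 19, 17.65%) was inside, but 15 Ces genes were at 250 kb. Both bounds exceed the 11.4% share of all genes. Of the keratin-associated proteins of hair, 42 of 57 (73.7%, 60.3 to 84.5) were inside, 21 of them in chr11:99386314-99985673 with the keratins *Krt12*, *Krt20*, *Krt23*, *Krt39* and *Krt40*. At 44 genes in 599 kb, this was the shortest of the 10 deserts with the most genes. The 5 beta-globin genes, from *Hbb-bt* to *Hbb-y*, lay in the desert on chromosome 7 that also held 53 olfactory receptor genes, with starts 50.0 to 89.2 kb from a peak.

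**Figure D2:**
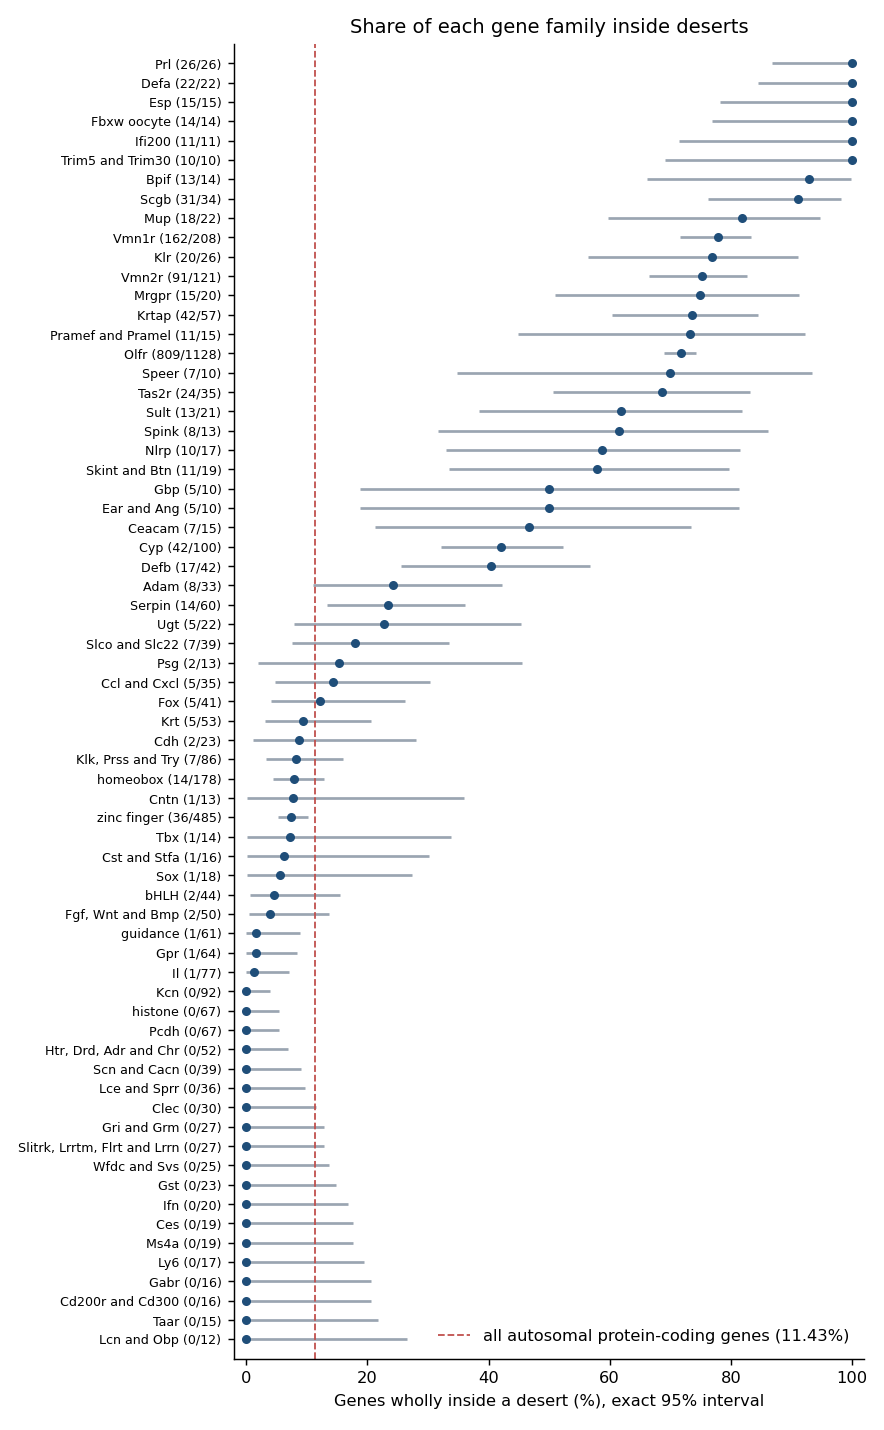
Share of the autosomal genes of each family that lay wholly inside a desert, for families of 10 or more genes, with exact 95% intervals for counting error and counts inside and in all in brackets. The dashed line is the share over all autosomal protein-coding genes, 11.43%, and families ran from 0% (for example Kcn, 0 of 92) to 100% (for example Prl, 26 of 26).

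Of 85 families with 5 or more autosomal genes, 36 had 50% or more of their genes inside and 25 had none. Of the 85, 8 were lists added after values were seen, all of them among the 36, and without these the counts were 28 and 25 of 77. Several families of neuronal function were among those with none. The shares of 11.4% over all genes and 6.801% without receptor genes are given for scale. The upper bounds treat genes as independent, which neighbours in an array are not, so no depletion is read from them. No gene of the potassium channels (0 of 92, upper bound 3.93%), sodium and calcium channels (0 of 39, 9.02%), glutamate receptors (0 of 27, 12.8%), GABA receptors (0 of 16, 20.6%), serotonin, dopamine, adrenergic and cholinergic receptors (0 of 52, 6.85%), protocadherins (0 of 67, 5.36%) or the Slitrk, Lrrtm, Flrt and Lrrn synaptic adhesion proteins (0 of 27, 12.8%) lay wholly inside. Of these bounds, only those of the potassium channels and protocadherins lay below both shares. At a threshold of 250 kb, 22 protocadherins, 2 of the 52 serotonin, dopamine, adrenergic and cholinergic receptors and 1 GABA receptor gene did, and the other families named here stayed at 0. Other families with neuronal roles had 1 or 2 members inside, with 1 of 61 axon guidance genes (*Sema3a*), 1 of 13 contactin and Cntnap genes (*Cntnap5c*) and 2 of 23 cadherins (*Cdh12* and *Cdh19*), or 1.64%, 7.69% and 8.70%. A long gene is more easily crossed by a peak, so being wholly inside also depends on length. Among potassium channel genes, deserts covered 99.95% of *Kcnh7*, 99.86% of *Kcnt2* and 68.1% of *Kcnh8*, each with 1 peak in the gene. These genes were named after their values were seen. Histone genes were at 0 of 67 too (upper bound 5.36%). What lay behind any of these zeros was not tested.

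Some deserts lay inside a gene. A total of 15 deserts lay wholly within 1 protein-coding gene. They fell in 14 genes, and the 6 with the longest such deserts, chosen after their values were seen, are named. The longest, 986 kb, lay in *Erbb4*, a receptor of neuregulins, and covered most of its 1076 kb. Others lay in *Cntnap2*, a neurexin-like adhesion protein (913 kb), *Lrrc4c*, a postsynaptic adhesion protein (880 kb), *Naaladl2* (765 kb), *Grm7*, a glutamate receptor (726 kb), and *Epha6*, an ephrin receptor (644 kb). In all, 262 genes overlapped a desert without being wholly inside, 84 of them 300 kb or longer. Of the 320 deserts with no gene wholly inside, 117 overlapped a gene.

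The 10 longest genes wholly inside were led by *Cdh12* and by *Cntnap5c*, a neurexin-like gene of 641 kb whose start lay 0.175 kb from the peak at the edge of its desert. They included *Sema3a*, an axon guidance signal (477 kb long, start 503.6 kb from a peak), *Glis3*, a zinc finger transcription factor (421 kb), *Slc25a21*, a mitochondrial carrier (485 kb), and *Rp1*, a photoreceptor gene (410 kb), with *Iqcm*, *Gm11639*, *Skint5* and *Skint6*. Such genes were exceptions. The median length of genes inside was 6.55 kb (quartiles 3.798 and 13.9 kb), against 20.1 kb (7.81 and 50.5 kb) for all other autosomal protein-coding genes. Without receptor genes the medians were 8.11 and 20.8 kb. Of genes inside, 52.4% had a coding transcript with a single coding exon, against 18.1% of the rest, and without receptor genes 21.8% against 16.5%.

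The transcription factor families were drawn by gene symbol and do not hold every factor. *Glis3*, *Zeb2*, *Sim1* and *Shox2*, named after their values were seen, lay inside deserts but are in none of these lists. Of the 780 genes listed, 59 lay inside (7.56%, 5.81 to 9.65), beside 11.4% of all genes and 6.801% without olfactory and vomeronasal receptor genes. Zinc finger genes made up 36 of them, 17 in 1 desert on chromosome 4 from *Zfp990* to *Zfp984*. Of the 178 homeobox genes listed, 14 lay inside, 8 of them in 1 desert on chromosome 7 from *Obox8*, of an oocyte-specific group, to *Crxos*. Of the forkhead genes 5 of 41 (12.2%, 4.08 to 26.2) lay inside, near the share of all genes, and they included *Foxb1*, *Foxc1*, *Foxf2* and *Foxq1*. *Sox1*, a factor of neural progenitors, lay 212 kb from a peak, *Olig3*, of the dorsal hindbrain and spinal cord, 235 kb, *Hand2*, of heart and limb, 167 kb, and *Tbx15*, of the skeleton and skin, 98.4 kb. Signals of development inside were *Fgf10* (282 kb) and *Bmp4* (181 kb). *Nkx2-1*, of forebrain and thyroid, *Nkx2-9* and *Pax9* shared 1 desert on chromosome 12, and *Isl1*, of motor neurons, lay 402 kb from a peak; these 4 and the genes of the next paragraph that belong to no small family were named after their values were seen.

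Gene starts inside deserts were poor in CpG. Over 300 bases around the outer start (250 before, 50 after), the median ratio of observed to expected CpG was 0.113 (quartiles 0.0495 and 0.209) for the 2378 genes inside and 0.610 (0.285 and 0.835) for the 18429 others. A CpG-rich start, defined as a ratio of at least 0.6 and a GC content of at least 50%, was present in 66 genes inside (2.78%, exact 95% interval 2.15 to 3.52) and in 47.6% of the rest (46.9 to 48.3). None of the 1062 receptor genes inside had one, and of the 395 receptor genes not inside 1 had, with median ratios of 0.0928 and 0.0824, so these starts were poor in CpG on both sides. Without receptor genes, the medians were 0.132 inside and 0.624 outside, and 5.02% against 48.6% had a CpG-rich start. Of the 66, 24 were known only by model or clone number and 12 were of the transcription factor families, among them *Zic1* and *Zic4*, regulators of cerebellar development, with starts 855 and 858 kb from a peak, and *Foxc1*, only 5.04 kb from one. Others were *Hells*, a chromatin remodeller of dividing cells (93.1 kb), *Hhip*, an inhibitor of hedgehog signals (323 kb), and *Ndufa4* and *Smc2*. *Ndufa4*, a respiratory chain subunit, started 0.017 kb from the edge peak, and *Smc2*, a condensin subunit, 0.041 kb. Only 4 genes inside, these with *Cntnap5c* and *Efcab8*, started within 1 kb of a peak, so the edge of the desert lay at their promoter. Distances to peaks follow from the rule, and 1998 genes inside (84.0%) started 100 kb or more from one.

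The letters TATAAA, the core of the TATA box, occurred on either strand of these 300 bases in 32.3% of genes inside (30.4 to 34.2) and 10.2% of the rest (9.77 to 10.7). The median GC content of the windows was 40.3% inside and 57% in the rest, and its part in the difference was not tested. Among receptor genes the letters were found in 37.1% of those inside and 19.5% of the 395 not inside, whose windows had median GC contents of 36.3% and 42.7%.

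**Figure D3:**
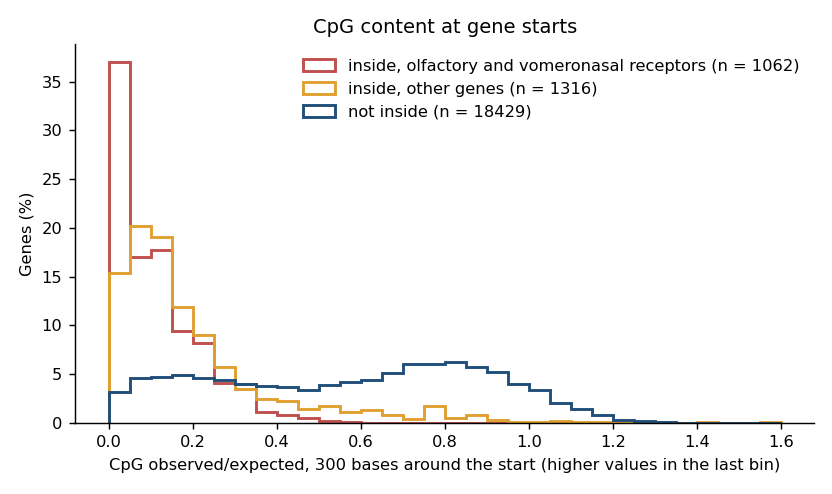
Ratio of observed to expected CpG in the 300 bases around gene starts, as the percent of genes in bins of 0.05, for receptor genes inside deserts (red, n = 1062), other genes inside (yellow, n = 1316) and genes not inside (blue, n = 18429). Both groups inside peak at low ratios, with medians of 0.0928 and 0.132, whereas the genes not inside spread to ratios above 0.6.

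Of the genes inside that belong to none of the families listed, 203 of 14709 (1.38%, 1.198 to 1.58), the following were chosen after their values were seen, and the 203 were not classed by tissue. *Ins1*, an insulin gene of pancreatic beta cells, lay 659 kb from a peak, *Tyr*, the pigment enzyme tyrosinase, 90.8 kb, *Col3a1*, a collagen of connective tissue, 126 kb, *Fshr*, the receptor of follicle-stimulating hormone, 246 kb, and *Ptprc*, the surface protein CD45 of white blood cells, 275 kb. Neuronal genes were found there too, namely *Tac1*, the precursor of substance P (138 kb), *Nts*, the precursor of neurotensin (704 kb), and *Slc5a7*, the choline transporter of cholinergic neurons (51.8 kb). *Zeb2*, a transcription factor used in many cell types including neurons, lay 190 kb from a peak. The other 513 genes had names by model or clone number only, 27.4% of the 1874 such genes (25.4 to 29.4), and 51 of them lay in 1 desert, chr14:41163130-43924939. RefSeq protein names placed 80 of the 513 in a family, most often keratin-associated proteins (19), zinc finger proteins (14) and alpha-takusan or disks large proteins (10).

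Deserts were poor in GC and rich in repeats. The median GC content was 38.1% (quartiles 37.2 and 39.6) over the 542 deserts, 39.8% (38.5 and 41.6) over 1028 stretches of 250 to 500 kb and 46.6% (43.7 and 49.8) over stretches of 1 to 50 kb. Of the deserts, 527 lay below the 42.8% GC of all shorter stretches together. Outside soft-masked repeats the deserts' median was 38.3%, against 47.6% for stretches of 1 to 50 kb. The median share of repeats was 42.9% (36.9 and 47.0) in deserts and 23.4% (16.6 and 31.5) in stretches of 1 to 50 kb. Deserts without genes had a median GC content of 37.8% and those with genes 39.0%. Content changed step by step with the distance between peaks, and the values for deserts continued that order.

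**Figure D4:**
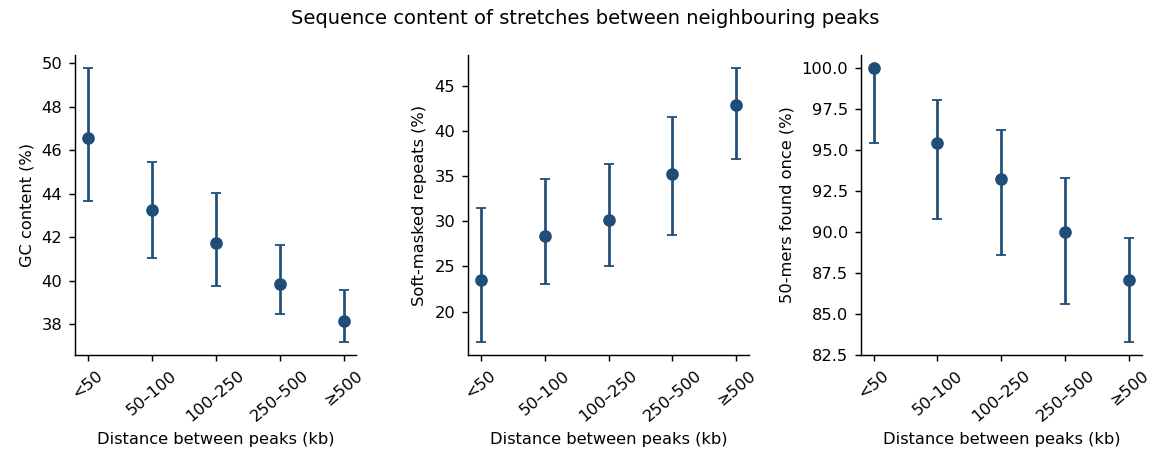
Median GC content, soft-masked repeats and 50-mers that occur once in the genome, each in percent, for stretches between neighbouring autosomal peaks in 5 classes of length from 1 kb upward; bars run from the lower to the upper quartile. From the shortest class to deserts, median GC fell from 46.6% to 38.1% and repeats rose from 23.4% to 42.9%.

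How much of the sequence was unique was measured on 50-mers, which are shorter than a read pair, so a repeated 50-mer does not show that a pair could not be placed. The median share of unique 50-mers was 87.1% (quartiles 83.3 and 89.7) over the deserts, but 29 deserts were under 50% and 29 held unknown bases. Over all desert 50-mers together the share was 80.4%, against 89.4% over all autosomes. Deserts without genes had a median of 88.0%, those with genes 83.9%, and the 35 led by olfactory or vomeronasal receptors 79.4%. Length times the unique share was still 500 kb or more in 420 of the 542 deserts. Those held 71.5% of all olfactory receptor genes, 70.2% of Vmn1r, 62.0% of Vmn2r, all Defa, Esp, Zscan4 and Ifi200 genes and 73.7% of Krtap genes, but none of the Mup, Amy, Serpin, oocyte Fbxw, Hsd3b, Lip or Fam205 genes and 17.1% of the Tas2r genes. In the 447 deserts with a unique share of 80% or more, 866 genes remained, 4.16% of all autosomal protein-coding genes. Of olfactory receptor genes 37.9% lay in these, of Vmn2r 29.8%, of prolactin genes 88.5% and of Krtap genes 73.7%, but of Vmn1r genes only 4.33%, 1 of the 34 secretoglobin genes, 1 of the 100 cytochrome P450 genes and none of the Defa, Esp, Zscan4, Ifi200, Klr, Mrgpr, Tas2r or placental cathepsin genes. Wherever copies are near-identical, a lack of peaks and a lack of placed reads were not told apart here.

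**Figure D5:**
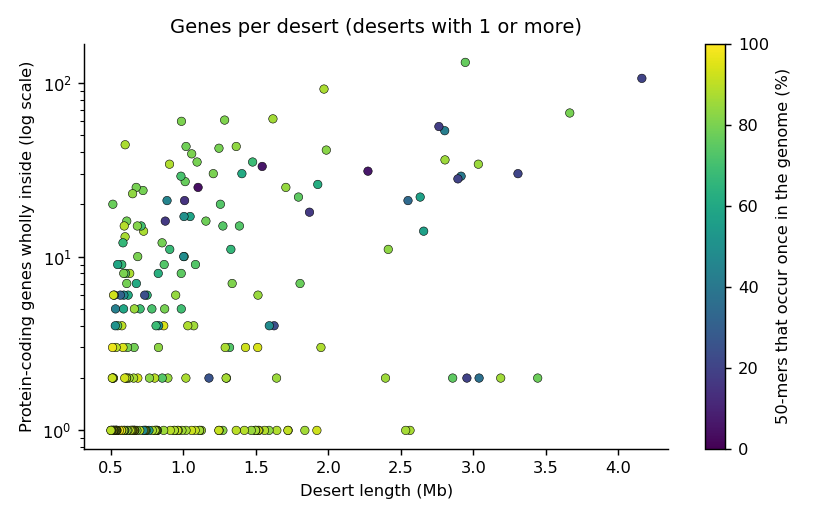
Protein-coding genes wholly inside each of the 222 deserts with 1 or more (log scale) against the length of the desert in Mb, coloured by the percent of 50-mers that occur once in the genome. The desert with 131 genes is 2944 kb long at 76.4% unique, whereas the longest has 106 genes at 20.1%.

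The peaks at the edges of deserts were set beside all others. Of 1013 autosomal peaks that bound a desert, 71 bound 2, and 222 (21.9%, 19.4 to 24.6) had their centre within 1 kb of the outer start of a protein-coding gene, against 25.5% (25.1 to 25.8) of the other 53557 autosomal peaks. The median distance to the nearest start was 96.4 kb for edge peaks and 13.4 kb for the others. By the rule, each edge peak borders a stretch of 500 kb or longer without a peak. What sets its distance to genes was not tested.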

How the data were processed

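Members and gene lists were chosen with earlier results of these data known. Single-nucleus ATAC-seq libraries of the VTA were processed by the authors with cellranger-atac and ArchR on mm10, with low-quality nuclei and doublets removed and peaks called reproducibly over pseudobulk replicates of the DN cluster. The deposited list gives other values only as coordinates, the start and end of 500-bp peaks, with no score or count, so depth per peak is unknown. A further filter of the authors on the share of nuclei is described, and whether it was applied to this list is not stated. Starts were read as counted from 0, and printed coordinates count from 1. Genes were those of GENCODE M21, and bases were read from GRCm38, the assembly that mm10 names. Families were assigned by gene symbol, the lists for Esp, Fbxw, Fam205, Bpif, Trim5 and Trim30, Casp1 and Casp4, Hsd3b, Lip, Aadac and Hbb genes after values were seen. Deserts named by position were the 10 longest, the 10 with most genes and 3 on each side of the threshold. Genes named were members of families with 10 or fewer inside, the first and last of larger ones, the 10 longest, those in the 10 longest deserts and DN markers, with exceptions stated. 50-mers were sampled every 1 kb and counted on both strands of the genome. Shares have exact 95% Clopper-Pearson intervals. No test was made, because 1 pooled list has no replicates. Some results are not reported here. Scripts in Python 3.11.15 with numpy 2.4.6, pandas 2.3.3 and scipy 1.17.1 were tested on simulated data.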

Additional observations from a re-analysis of the deposited data

How the results depend on the processing

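The numbers of deserts and genes are counts over 1 pooled peak list of unknown depth per peak, and they move with the threshold. The paper gives the numbers of nuclei and fragments of the DN cluster. How far the counts depend on this depth was not tested. A lower or higher threshold changed the number of deserts from 542 to 1570 at 250 kb and 184 at 1 Mb, and their length from 551.1 to 905.6 and 306.7 Mb. At 1 Mb, 20 in place of 36 families had 50% or more of their genes inside, and the Vmn1r share fell from 77.9% to 51.4%. Tolerating 1 peak inside gave 841.1 Mb. Deserts with 90% or more unique 50-mers numbered 121 with a length of 92.4 Mb and held 60 genes (0.288% of autosomal protein-coding genes), and 0 families reached 50%. Alternatives chosen after seeing the data asked for 80% unique 50-mers, which left 866 genes (4.16%) and 8 families, or for 500 kb of unique sequence, which left 1925 genes and 25 families. Leaving out deserts with unknown bases left 1899 genes. Counting genes by overlap or by their outer start, dropping genes named by model or clone, counting length without unknown bases, adding the X chromosome and reading starts as counted from 1 moved no value by more than 1.5 times. The same held for GC content outside repeats, for CpG content over 1000 bases and for CpG content and gene length without receptor genes. No paired analysis was possible because no result comes from a test and both libraries are pooled in 1 list.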
